A study of Homo sapiens and synthetic construct with 19 samples.

Results

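Human genes that never received a functional name are listed under the name of the genomic clone in which they were annotated, such as AC, AL or AP followed by a number. The 894 genes described here are the clone-named genes with a mean normalized count of at least 100 in the 2 control libraries or in the 8 sgRNA libraries of an RNA-seq experiment, of 18027 clone-named genes and 58050 genes in the table. A normalized count is the number of reads assigned to a gene in a library, divided by a factor for the depth of that library. Of the 894 genes, 627 had AC names, 200 had AL names and 67 had AP names. The members were thus chosen by their measured control and sgRNA means, so the levels in control and sgRNA libraries are given as a description without a test, and tests were kept to comparisons that the choice did not use.

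The cells were TF-1, a human erythroleukemia line that grows in medium with GM-CSF, and all of them expressed dCas9-tagBFP-ZIM3, a catalytically inactive Cas9 joined to a KRAB repressor domain. The control cells carried a scrambled sgRNA, and the other cells carried sgRNA 1 or sgRNA 2 against CD33, each as a guide of 20 nt or truncated to 15 nt, which gave 5 groups of 2 libraries. The methods describe a week of selection, sorting for dCas9-ZIM3 and the sgRNA, harvest after 2 weeks of sgRNA expression and enrichment of polyadenylated RNA. The design text of the series speaks of CRISPRgate in place of dCas9-ZIM3. The labels do not say whether both libraries of a group are from different cultures. The p-values hence rest on library-to-library spread, which may be technical.

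Clone-named genes are mostly long noncoding RNA genes, pseudogenes and loci marked TEC, which are transcribed stretches still to be checked experimentally. Many of the long noncoding RNA genes are antisense, that is, they lie on the opposite strand of a protein-coding gene and often cover part of its exons, whereas divergent transcripts start close to a coding gene's promoter and run away from it. A read can be given to the right gene of such a pair only where the library records the strand of the RNA. The library kit named in the methods does not mark strand, and the strand setting of the read counting is not given in the sources used here, so reads of a member and of its opposite-strand partner cannot be told apart in these values.

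Total reads ranged from 16691274 to 16866665 in the control libraries and from 16460344 to 19616765 in the sgRNA libraries. CD33, the gene that both sgRNAs target, stood at 516 and 445 in the control libraries, at 205 to 217 with sgRNA 1 of 15 nt and at 302 to 307 with sgRNA 1 of 20 nt. In the libraries labelled sgRNA 2, CD33 lay at 420 to 485, which overlaps the control libraries. The 4 libraries are therefore called the libraries labelled sgRNA 2. Of 12 marker genes of TF-1 cells, 11 had a mean of at least 10 on both sides, and CSF2RA was the exception, at 0 to 1.75. Their summed level was 47498 to 54085 in control and 28769.7 to 39493 in sgRNA libraries. The fetal globin gene HBG2 carried this difference, with means of 42787 and 13401. Of the 11 other markers, 7 were higher in every sgRNA library than in both control libraries, such as CD34 (means of 154 and 2794) and KLF1 (608 and 3991), and 3 were lower. None of the 3 epithelial markers reached 10 on either side. Markers of T cells, B cells, fibroblasts and monocytes reached 10 in control for 1, 2, 2 and 2 of 3 genes, and those of fibroblasts summed to 94.2 to 116 in control and 8.03 to 59.4 in sgRNA libraries. B cell markers summed to 337 to 388 in control and 116 to 254 in sgRNA libraries. Monocyte markers summed to 1741 to 1749 in control and 1560 to 2272 in sgRNA libraries, which overlap. Among these, CD14 had means of 136 and 4.07 and LYZ went the other way, with means of 1609 and 1928. The part of these shifts in the levels below was not tested. The 2 control libraries stood apart from the 8 sgRNA libraries, with 7792 and 8431 clone-named genes above 0 against 5761 to 6110. The gap remained at equal depth, with an expected 7738 and 8398 genes against 5680 to 5890. All clone-named genes together took 3.02% and 3.03% of the reads in control and 2.84% to 3.08% in the sgRNA libraries. In bulk RNA, fewer cells of a type and less RNA per cell cannot be told apart, and with a single scrambled sgRNA the effect of the guide and that of the control cell population cannot be told apart either.

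Most of the 894 members were found on both sides. A mean of at least 100 was reached in control and in sgRNA libraries by 561 members (62.8%), in control only by 185 (20.7%) and in sgRNA libraries only by 148 (16.6%). The median member of the control-only class had a control mean of 154 and an sgRNA mean of 53.9. The median member of the sgRNA-only class had 54.6 in control and 137 in sgRNA libraries. Members at 100 or more on both sides had medians of 320 and 286. Between the 2 control and the 8 sgRNA libraries, 663 members did not overlap, with control higher for 385 and lower for 278. Over all 16720 genes that could be tested, control was higher without overlap for 32.9% and lower for 35.2%, and since the choice of members used this contrast, nothing is read from their counts. A difference of more than 4-fold between the means was seen for 81 members that were lower in sgRNA libraries and for 47 that were higher, while 487 members stayed within 2-fold. The median log2 difference, sgRNA libraries minus control, was -0.19 over the members and 0.06 over all genes tested.

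**Figure D1:**
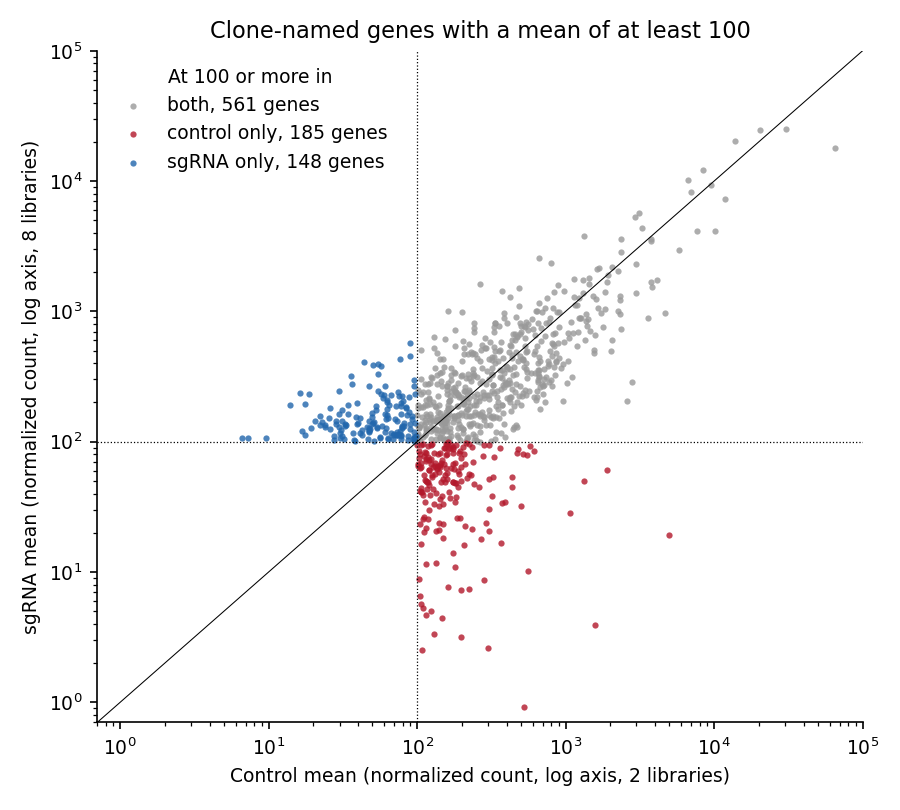
Mean normalized count of the 894 members in the 2 control libraries (x axis, log scale) and in the 8 sgRNA libraries (y axis, log scale), 1 point per gene, coloured by the side on which the mean reached 100. The 561 members at 100 or more on both sides spread around the diagonal, and the 2 other classes fill the stripes below 100 on one side, reaching down to a mean of 0.918 in sgRNA libraries and of 6.63 in control.

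No member had 0 reads in every library of one side. AC092933.1, annotated as the pseudogene NAA50P2, came nearest, with 490.3 and 555 in the control libraries and 8 reads in all 8 sgRNA libraries together. It was at 0 in 2 of those libraries and reached 1.77 in the highest. Among all clone-named genes, 2360 (13.1%) had reads in control libraries only and 1940 (10.8%) in sgRNA libraries only. A further 7679 (42.6%) had reads on both sides and 6048 (33.5%) in no library. A single read sufficed for these counts, and the sides hold 2 and 8 libraries. The shares over all genes were not taken, so nothing is read from these counts. AC008050.1 was the highest of the first kind, at 27.7 and 32.6 in control (50 reads in total), and AC011773.1 the highest of the second, at 26.7 to 36.7 in the sgRNA libraries (278 reads in total). These 3 genes were picked after their values were seen. At the threshold itself, the pseudogene AC004987.2 (SSBP3P1; control 100.1, sgRNA 93.8) and AL136038.2 (51.2 and 100.4) lay just inside. AC006547.3 (77.8 and 99.96) and AL445437.1 (10.3 and 99.6) lay just outside. The direction of AC004987.2 turned with the scaling of the libraries, from -0.09 on the log2 scale to 0.01 with TMM scaling and 0.16 with scaling to total reads (CPM).

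The members were largely antisense genes. The GENCODE v44 annotation held 878 of the 894 by their gene identifiers, and 220 of these have since received a symbol of their own. There were 737 long noncoding RNA genes, 79 pseudogenes, 51 TEC loci and 11 protein-coding genes. Their exons covered a median of 1000.5 bases, and 245 members (27.9%) had a single exon block. The nearest protein-coding gene overlapped the member on the opposite strand for 702 members (80.0%) and on the same strand for 63. A further 17 members started within 1000 bp of the neighbour and ran away from it, and 64 lay more than 10000 bp from any protein-coding gene. At least 1 exonic base was shared with an exon of some other gene by 778 members (88.6%), and 163 members had every exonic base inside exons of opposite-strand genes.

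The classes differed in their position. Opposite-strand overlap was held by 113 control-only members (62.8% of those annotated), 120 sgRNA-only members (82.8%) and 469 members of both sides (84.8%). Of the 17 head-to-head members, 11 belonged to the control-only class, 1 to the sgRNA-only class and 5 to both. A single exon block was found in 40% of control-only, 22.1% of sgRNA-only and 25.5% of the other members. No exonic base was shared with another gene by 39 control-only members, 10 sgRNA-only members and 51 members of both sides. Such counts describe classes that the measured levels defined, and no test was made on them.

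Exon stretches of 5 members are printed to show how a member can hold the same bases as its neighbour. Each is read 5′ to 3′ on the strand of the member from hg38, and capitals mark bases that also lie, on the other strand, in coding exons of the neighbour. The first set holds the stretch with most coding bases of the neighbour in the antisense genes AC006064.4 (chr12:6537794-6537985, minus strand, neighbour GAPDH), AC025259.3 (chr12:52058750-52058941, minus strand, NR4A1), AC011611.3 (chr12:76030911-76031210, plus strand, PHLDA1) and AC008870.3 (chr16:23687325-23687624, minus strand, PLK1).
AC006064.4: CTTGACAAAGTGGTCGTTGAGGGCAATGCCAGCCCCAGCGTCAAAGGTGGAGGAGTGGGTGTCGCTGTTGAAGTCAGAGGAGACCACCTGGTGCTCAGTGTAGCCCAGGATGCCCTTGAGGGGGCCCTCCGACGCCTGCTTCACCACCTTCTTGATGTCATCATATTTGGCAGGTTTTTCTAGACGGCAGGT
AC025259.3: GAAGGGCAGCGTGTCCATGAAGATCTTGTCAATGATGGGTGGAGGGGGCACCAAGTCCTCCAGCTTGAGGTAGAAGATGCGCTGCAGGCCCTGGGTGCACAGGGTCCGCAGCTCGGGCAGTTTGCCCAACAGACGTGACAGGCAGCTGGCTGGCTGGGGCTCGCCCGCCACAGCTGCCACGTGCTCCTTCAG
AC011611.3: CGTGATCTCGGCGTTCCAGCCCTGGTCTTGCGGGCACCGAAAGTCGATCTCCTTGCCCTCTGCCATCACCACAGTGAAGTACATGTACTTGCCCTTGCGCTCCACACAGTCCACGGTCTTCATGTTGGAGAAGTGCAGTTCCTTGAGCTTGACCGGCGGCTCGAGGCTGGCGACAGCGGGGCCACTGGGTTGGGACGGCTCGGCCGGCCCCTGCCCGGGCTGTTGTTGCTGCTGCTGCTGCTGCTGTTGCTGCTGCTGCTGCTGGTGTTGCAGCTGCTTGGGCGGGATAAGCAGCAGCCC
AC008870.3: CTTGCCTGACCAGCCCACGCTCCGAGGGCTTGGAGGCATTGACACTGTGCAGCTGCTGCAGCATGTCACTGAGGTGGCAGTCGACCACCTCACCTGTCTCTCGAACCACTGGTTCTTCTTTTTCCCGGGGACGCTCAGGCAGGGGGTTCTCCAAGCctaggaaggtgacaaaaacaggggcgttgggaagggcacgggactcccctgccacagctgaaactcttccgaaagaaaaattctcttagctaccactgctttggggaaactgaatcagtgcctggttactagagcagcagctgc
All 192 bases of the first 2 stretches and all 300 of the third are coding sequence of the neighbour on the other strand. So are 156 of the 300 bases of AC008870.3, whose other bases also lie in annotated exons, of PLK1 or of another gene. The last stretch shows, for contrast, the first 200 bases of a member that touches no exon of its neighbour, AC123912.4 (chr19:21587123-21587322, minus strand, apart from ZNF429).
AC123912.4: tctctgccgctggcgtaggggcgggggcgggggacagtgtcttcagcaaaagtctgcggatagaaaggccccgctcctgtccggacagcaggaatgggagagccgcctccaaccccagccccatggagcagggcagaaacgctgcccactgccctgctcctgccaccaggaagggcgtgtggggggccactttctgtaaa
This stretch holds no base of any other annotated exon, so reads in it belong to this locus alone in the annotation, and it is 65.5% G and C.

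The control-only class was led by AC025259.3, now NR4A1AS, which is antisense to NR4A1, an orphan nuclear receptor gene of the immediate early response. It stood at 4828 and 5070.0 in the control libraries and at 14.4 in the lowest, 18.5 in the median and 23.0 in the highest sgRNA library. Control was far above every sgRNA library, with a ratio of means of 260. NR4A1 itself had means of 17636 and 87.4 (log2 -7.74), and 82.4% of the exonic bases of AC025259.3 lie in NR4A1 exons. Because a neighbour that shares exonic bases with a member can hold the same reads as those that chose the member, its values against control are given without a test here and below. AL121987.2 and AC138150.1 also share bases with neighbours that were lower in sgRNA libraries. AL121987.2 was at 573 and 660.3 in control and at 56.2, 76.95 and 130.4 (lowest, median, highest) in sgRNA libraries. Its partner PEA15, a regulator of ERK signalling, had a log2 difference of -2.98. AC138150.1, now HEXIM2-AS1, was at 602 and 543 in control and at 52.9, 88.0 and 146 in sgRNA libraries, again without overlap between the sides. It covers exons of both HEXIM2 and HEXIM1, genes of inhibitors of the elongation factor P-TEFb. HEXIM2 had a log2 difference of -1.88 and HEXIM1 one of -2.76.

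Other control-only members differed from their neighbours. AC002094.5, a TEC locus of 1 exon, was at 1477 and 1668 in control and at 1.78, 3.80 and 5.31 (lowest, median, highest) in sgRNA libraries, a ratio of means of 403. SARM1, an NAD-cleaving enzyme of axon degeneration whose intron holds the locus, was at means of 178 and 185 on the 2 sides (log2 0.03, SE 0.11, adjusted p = 0.828, limma), and the sign of this small difference turned under 4 of the alternatives. AL118516.1, now TBC1D22A-DT, starts 53 bp from TBC1D22A on the other strand, and was at 1348 and 1298 in control and at 26.1, 48.3 and 79.1 in sgRNA libraries. All sgRNA libraries were thus far below control for this divergent transcript, while TBC1D22A had means of 402 and 373 (log2 -0.11, SE 0.08, adjusted p = 0.228). AC025171.3, a noncoding gene of 4 exon blocks on chromosome 5, was at 1744 and 2065 in control and at 52.6, 54.1 and 80.1 in sgRNA libraries. ANXA2R, 14555 bp away, had means of 50.7 and 39.1 (log2 -0.40, adjusted p = 0.063). ANXA2R passed the threshold under 4 alternatives, namely without the trend, with edgeR, without replicate 1 of control and without replicate 1 of sgRNA 2 at 15 nt (adjusted p = 0.0196 to 0.046). Without replicate 2 of control the difference was -0.23 (adjusted p = 0.409). AC025171.1, which shares exonic bases with AC025171.3 and belongs to the members of both sides, was lower in the same libraries, at 2342 and 2817 in control and 181 to 237 in sgRNA libraries. AC091563.1 moved against its neighbour. It was at 1126 and 1026 in control and at 15.7, 30.0 and 42.9 in sgRNA libraries, whereas DEPTOR, an inhibitor of mTOR signalling that lies 1262 bp away on the same strand, rose from a mean of 9.65 to 126 (log2 3.61, SE 0.22, adjusted p = 8.74e-11). The pseudogene AL390719.1 was at 571 and 550.5 in control and at 4.50, 9.65 and 17.4 in sgRNA libraries, and its neighbour RNF223 was too low to be tested.

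In the sgRNA-only class, the highest members were mostly antisense to genes that were higher in sgRNA libraries too. AC008870.3 was at 77.1 and 103 in the control libraries and at 437, 594 and 663 (lowest, median, highest) in the sgRNA libraries, which all lay above control. PLK1, the mitotic kinase whose exons hold 86.3% of its exonic bases, had means of 536 and 3141 (log2 2.53). AL807752.3 was at 66.3 and 88.1 in control and at 246, 443 and 599 in sgRNA libraries. All of its exonic bases lie in exons of SAPCD2, a gene of spindle orientation, which had a log2 difference of 2.47. AL731557.1, now SLC18A2-AS1, was at 48.2 and 39.8 in control and at 336, 390 and 541 in sgRNA libraries. Only 6.3% of its exonic bases lie in exons of SLC18A2, the vesicular monoamine transporter, which had a log2 difference of 2.67. AL138789.1 was at 56.6 and 51.9 in control and at 332, 361 and 506 in sgRNA libraries, and AL122035.2 at 57.8 and 51.9 against 304, 335 and 371. Both were above control in every sgRNA library. Their neighbours DEPDC1, a cell cycle gene, and MTHFD1, an enzyme of folate metabolism, had log2 differences of 3.25 and 2.64.

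The other sgRNA-only members of highest level had a neighbour that changed less or the other way. AL157895.1, a gene of 10 exon blocks that shares no base with exons of its opposite-strand neighbour MALRD1, was at 90.3 and 88.1 in control and at 328, 448 and 531 in sgRNA libraries. MALRD1 was at means of 9.04 and 14.3 (log2 0.70, SE 0.36, adjusted p = 0.0814), and the difference was 1.34 without replicate 1 of control (adjusted p = 0.00862) and 0.05 without replicate 2 (adjusted p = 0.914). AL034397.3, now MIR223HG and the host gene of the myeloid microRNA miR-223, was at 44.6 and 55.5 in control. It split by guide, at 457 to 677 with sgRNA 1 and 154 to 193 in the libraries labelled sgRNA 2 (log2 -1.80, SE 0.11, adjusted p = 9.37e-10). VSIG4, a complement receptor gene 1312 bp away, rose from 31.4 to 54.2 (log2 0.73, adjusted p = 0.000981). AL110504.1 was at 57.8 and 56.7 in control and at 280.1, 381 and 463.5 in sgRNA libraries, all above control. The gene it overlaps on the same strand, CCNK, a cyclin that partners transcriptional kinases, fell from 4216 to 2218 (log2 -0.93, adjusted p = 1.21e-09), and CCDC85C, with which it shares exonic bases, had a log2 difference of -0.35.

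**Figure D2:**
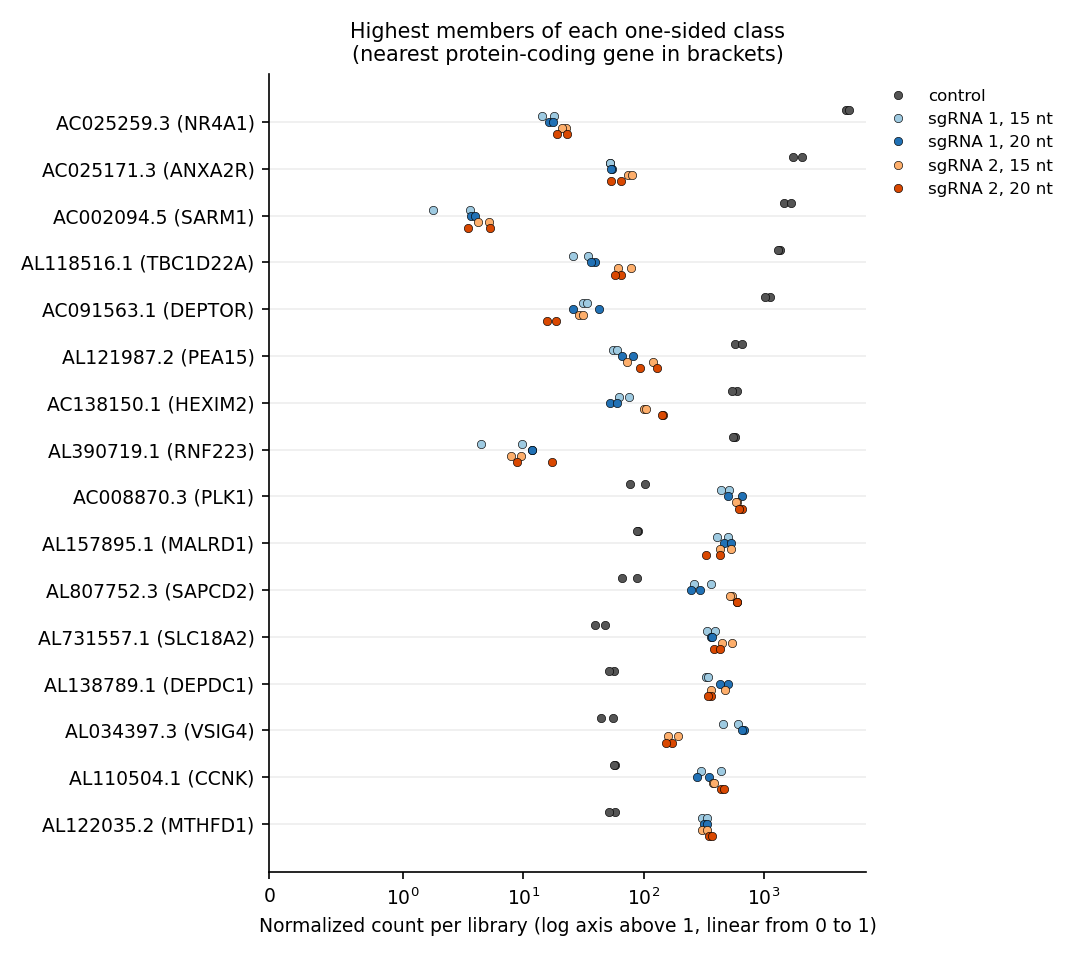
Normalized count in each of the 10 libraries (x axis, log scale above 1) for the 8 highest members of the control-only class (upper rows) and the 8 highest of the sgRNA-only class (lower rows), with the nearest protein-coding gene in brackets and colours for the 5 groups. The grey control points lie to the right of all sgRNA points in the upper rows and to the left in the lower rows, and AL034397.3 also splits between sgRNA 1 and the libraries labelled sgRNA 2.

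The most abundant members of all reached 100 on both sides and lie antisense to housekeeping genes. AC093484.3, all of whose exonic bases lie in exons of the polyubiquitin gene UBB, was at 64379 and 66301 in control and at 12268, 17433 and 26461 (lowest, median, highest) in sgRNA libraries. UBB had a log2 difference of -1.94. Per kb of exon, the AC093484.3 level was 255% of that of UBB in control, 267% with sgRNA 1 and 257% in the libraries labelled sgRNA 2. The member's share of the UBB level thus lay close together in control and with both guides, each taken as a pool of its libraries. AL138963.3, antisense to TPT1 (translationally controlled tumour protein), was at 31206 and 29748 in control and at 18714, 25517 and 30477 in sgRNA libraries, which overlap control. TPT1 had a log2 difference of -0.26. AC006064.4, whose exonic bases all lie in exons of the glycolytic gene GAPDH, was at 13757 and 13958 in control and at 16604, 20415 and 24187 in sgRNA libraries. GAPDH had a log2 difference of 0.60, and per kb the member was at 306%, 297% and 286% of GAPDH in control, with sgRNA 1 and in the libraries labelled sgRNA 2.

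AC011603.2, now TUBA1B-AS1, is antisense to the alpha tubulin gene TUBA1B. It was at 21334 and 19534 in control and at 19449, 25939 and 30067 in sgRNA libraries, which overlap control, and TUBA1B had a log2 difference of 0.28. AC245140.2 and AC010761.1 are antisense to the ribosomal protein genes RPL10 and RPL23A. The first was at 8078 and 8694 in control and at 9721, 11454 and 15888 in sgRNA libraries, and the second at 6366 and 7004 against 8093, 9788 and 12307. Both were above control in every sgRNA library, and their neighbours had log2 differences of 0.49 and 0.55.

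The protein-coding neighbours allowed a test only where they share no bases with a member. A neighbour that could be tested was found for 794 members, which gave 754 distinct genes. Of these, 335 (44.4%) fell and 315 (41.8%) rose with the CD33 sgRNAs at an adjusted p under 0.05 in limma. Among all 16720 genes tested, 38% fell and 41.9% rose, but most of the neighbours share exonic bases with the member, so nothing is read from these counts. Of the 133 distinct neighbours that share no exonic base with a member paired with them, 55 fell (41.4%) and 52 rose (39.1%), close to the background in both directions. Bases that they share with other members were not checked. The next counts, by class, are over all tested neighbours, with or without shared bases. Beside the 185 control-only members there were 152, of which 120 fell and 20 rose. Beside the sgRNA-only members there were 133, of which 5 fell and 113 rose, and beside the members of both sides 488, of which 219 fell and 190 rose. Where a member shares reads with its neighbour, its class uses the same contrast as these counts, and nothing is read from the split. Counting only the 82 neighbours whose locus does not overlap the member, 39 fell (47.6%) and 30 rose (36.6%), against 38% and 41.9% of all genes tested. Whether these shares depart from the background was not tested.

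Among opposite-strand pairs, the log2 difference of a member followed that of its neighbour more closely where more exonic bases were shared. Over the 794 pairs, Spearman's rho between the log2 differences of member and neighbour was 0.665 for the libraries labelled sgRNA 2 minus sgRNA 1 and 0.716 for sgRNA minus control. Genes are not independent replicates and all pairs share the same 10 libraries, so these coefficients are descriptions. Among 657 opposite-strand pairs, rho for the first difference was -0.07 for the 38 members with no exonic base in the neighbour's exons, 0.734 for 236 members with up to 25%, 0.866 for 178 with over 25% to 75%, 0.932 for 54 with over 75% and 0.938 for the 151 with all exonic bases there. The values for sgRNA minus control were 0.08, 0.838, 0.888, 0.948 and 0.944. In the 17 head-to-head pairs rho was -0.30 and 0.02, in the 52 pairs that overlap on the same strand 0.157 and 0.268, and in the 40 pairs over 10000 bp apart 0.210 and 0.220. Pairs up to 10000 bp apart gave 0.679 and 0.184 on the same strand (19 pairs). On opposite strands they gave 0.133 and 0.70 (9 pairs), so some values were high without overlap. As a background, 9632 protein-coding genes and their nearest protein-coding gene gave 0.146 and 0.201. What part shared reads have in this pattern was not tested.

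**Figure D3:**
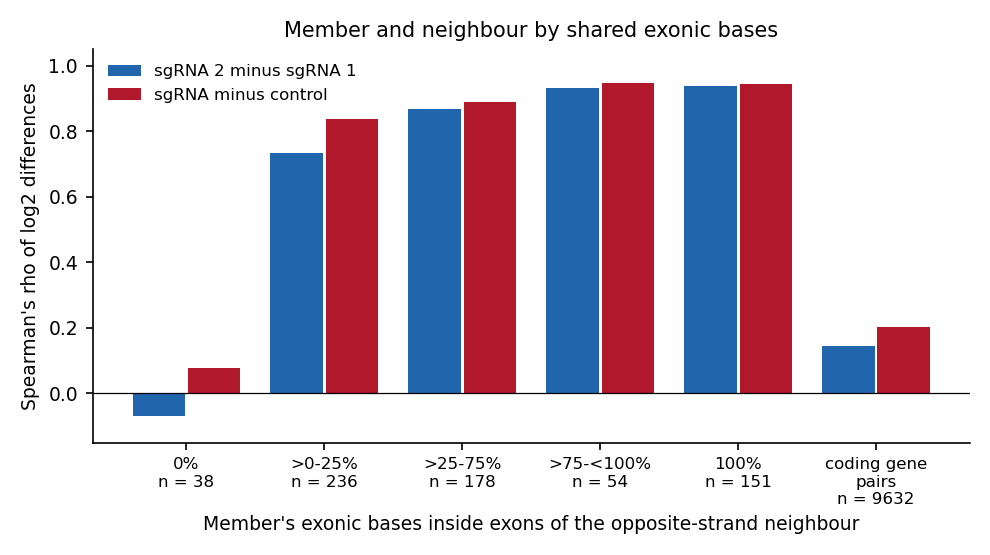
Spearman's rho (y axis) between the log2 differences of members and of their opposite-strand neighbours, in 5 bins of the share of the member's exonic bases that lie in the neighbour's exons (x axis), with 9632 pairs of protein-coding genes at the right, for the libraries labelled sgRNA 2 minus sgRNA 1 (blue) and sgRNA minus control (red). The bars are near 0 in the bin without shared bases (38 pairs) and reach 0.938 and 0.944 in the bin of complete sharing (151 pairs).

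The head-to-head members give a counterpart without shared bases. Against control, 58.8% of the 17 pairs changed in the same direction, and 57.6% of the pairs of protein-coding genes did. AC015912.3 is a single-exon gene that starts 88 bp from TRIM25, an E3 ligase of antiviral signalling. Its mean was 279.7 in control and 8.62 in sgRNA libraries, while TRIM25 rose by 0.75 (adjusted p = 2.9e-08). AL139288.1, a TEC locus 262 bp from RNF187, had means of 196 and 3.19 while RNF187 rose by 0.60 (adjusted p = 2.99e-07). These 2 members were lower beside a neighbour that was higher. AP003733.4, a TEC locus 95 bp from the ferritin heavy chain gene FTH1, had means of 179.7 and 11.0, and FTH1 fell by 3.79 (adjusted p = 1.82e-16). The 3 loci were chosen for mention after their values were seen. No head-to-head member shares an exonic base with the neighbour it was paired with.

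For the 151 members whose exonic bases all lie in the neighbour's exons, the level was a fairly fixed share of the neighbour's. Per kb of exon, the median member stood at 208% of its neighbour in control, at 223% with sgRNA 1 and at 218% in the libraries labelled sgRNA 2. The share kept within 1.5-fold across the 3 for 134 of the 151 members (88.7%), against 362 of 506 other opposite-strand pairs (71.5%). The classes of members use the contrast of control and sgRNA libraries, and the 2 sets differ in them. Control-only members were 11 of the 151 and 92 of the 506, and sgRNA-only members 29 and 89. Nothing is therefore read from the gap between the sets. Lengths are those of all annotated transcripts merged, which for the neighbour can include exons that these cells do not use.

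Between the guides, most members could be tested, because the choice used the mean over all 8 sgRNA libraries. In the libraries labelled sgRNA 2, 264 of the 894 members (29.5%) were lower than with sgRNA 1 and 236 (26.4%) were higher at an adjusted p under 0.05 in limma. The background over all genes tested was 28.7% lower and 29.1% higher, but 42 members had a mean under 100 in control and reached 100 with one guide alone, so they had to differ between the guides, and of these 32 were lower and 4 higher. Among the other 852 members, 232 (27.2%) were lower and 232 (27.2%) higher, near the background in both directions. More than 2-fold differences among the called were held by 23 lower and 20 higher of the 852 members, and by 8.32% of all genes tested. The latter share is over both directions and over genes with a mean of at least 10, so the 2 are not compared. By class, 33 of the 185 control-only members were lower and 50 higher, 32 of the 106 sgRNA-only members without that limit were lower and 22 higher, and 167 of the 561 others were lower and 160 higher. The median log2 difference was 0.04 over the 852 members and 0.01 over all genes.

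Among the members highest in the libraries labelled sgRNA 2, 3 went with their neighbour. AC009902.2, now LNMICC, was at 113 to 128 with sgRNA 1 and at 425 to 630.4 in the libraries labelled sgRNA 2, and at 36.1 and 35.0 in control (log2 2.06, SE 0.11, adjusted p = 1.14e-10, limma). FABP5, the fatty acid carrier gene it starts beside, rose by 1.90 (adjusted p = 7.68e-11). AC241644.3, which lies wholly in exons of the gap junction gene GJA5, was at 42.3 to 61.4 with sgRNA 1 and 162 to 180.3 in the libraries labelled sgRNA 2 (log2 1.79). It is 1 of the 42 members that reached 100 with one guide alone, so its difference and that of GJA5, which was 1.87, are given without a test. AC011611.3, now PHLDA1-AS1, was at 512 and 490.1 in control, at 11.6 to 21.0 with sgRNA 1 and at 40.2 to 60.0 in the libraries labelled sgRNA 2 (log2 1.61, SE 0.16, adjusted p = 3.85e-07). All sgRNA libraries were therefore below control for this member. PHLDA1, a gene of the growth factor response, rose by 1.63 between the guides (adjusted p = 4.98e-09) and had a log2 difference of -3.72 against control.

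The other 2 differed from their neighbour in the size or the sign of the change. AC124016.1, now HNRNPD-DT, was at 95.2 and 112 in control, at 0.899 to 4.46 with sgRNA 1 and at 5.31 to 15.8 in the libraries labelled sgRNA 2 (log2 1.71, SE 0.36, adjusted p = 0.000655). At such low levels the size of this difference depends on the constant added before taking logs. With 0.5 or 5 added in place of 1, it was 1.90 or 1.01. HNRNPD, an mRNA decay factor, had a smaller rise of 0.61 (adjusted p = 5.64e-06). AC108134.2, a single-exon gene that shares no exonic base, was at 343 and 394 in control, at 3.60 to 14.8 with sgRNA 1 and at 18.3 to 34.8 in the libraries labelled sgRNA 2 (log2 1.65, SE 0.28, adjusted p = 8.7e-05). Its nearest coding gene ZNF213, 13932 bp away, fell by 0.21 (adjusted p = 0.0345). Whether these members differed from their neighbours was not tested.

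AC123912.4 had the widest gap in the other direction. This noncoding gene on chromosome 19 was at 24.1 and 21.7 in control, at 260 to 296 with sgRNA 1 and at 7.97 to 14.8 in the libraries labelled sgRNA 2, a 23.9-fold difference (log2 -4.50). It too reached 100 with one guide alone, so this is a description. It was thus above control with sgRNA 1 alone and lay below both control libraries in all 4 libraries labelled sgRNA 2. The zinc finger gene ZNF429, 13468 bp away, fell by 0.45 between the guides (adjusted p = 0.00147). AL136131.3, a gene of 188 bases that lies wholly in an exon of the angiogenic factor gene VEGFA, was at 396 and 450.3 in control, at 868 to 1040.4 with sgRNA 1 and at 147 to 158 in the libraries labelled sgRNA 2. Control lay between the guides. The log2 difference was -2.63 (SE 0.08, adjusted p = 7.92e-14), and that of VEGFA was -2.60 (adjusted p = 5.17e-15).

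AL157871.4 lies wholly in exons of WARS1, the tryptophanyl-tRNA synthetase gene. It was at 265 and 266 in control, at 2467 to 2905 with sgRNA 1 and at 643 to 705 in the libraries labelled sgRNA 2 (log2 -1.96, SE 0.06, adjusted p = 3.61e-13), so that it was above control with both guides. WARS1 had a log2 difference of -1.91 (adjusted p = 2.74e-13), and the level of the member per kb was 208%, 212% and 204% of WARS1 in control, with sgRNA 1 and in the libraries labelled sgRNA 2. AC105285.1, now GALNT7-DT, was at 136 to 190 with sgRNA 1 and at 30.6 to 43.2 in the libraries labelled sgRNA 2, the latter overlapping the 36.1 and 38.6 of control (log2 -2.12). GALNT7, a gene of O-glycosylation, had a log2 difference of -1.18. AC022075.1, now KLRK1-AS1, was at 12.0 and 20.5 in control, at 352 to 421 with sgRNA 1 and at 78.8 to 114 in the libraries labelled sgRNA 2 (log2 -2.08). Both members reached 100 with one guide alone and were not tested. KLRK1, which encodes the NKG2D receptor of lymphocytes, was too low to be tested, with means of 1.21 in control and 1.96 in the sgRNA libraries.

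**Figure D4:**
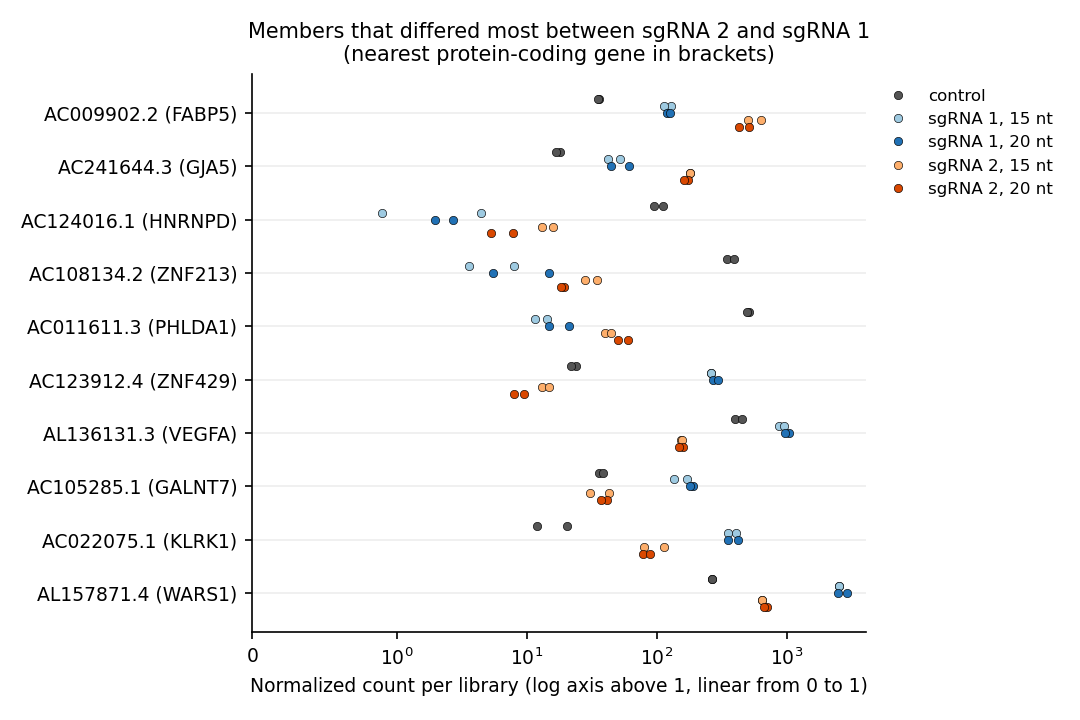
Normalized count in each of the 10 libraries (x axis, log scale above 1) for the 5 members with the highest and the 5 with the lowest log2 difference between the libraries labelled sgRNA 2 and sgRNA 1, with the nearest protein-coding gene in brackets. The 4 blue points of sgRNA 1 and the 4 orange points of sgRNA 2 do not overlap in any row, which was a condition for the choice of these members. For AC123912.4 their means are 23.9-fold apart.

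The libraries were made to ask whether truncating a guide changes its off-target effects, and between the lengths almost no member was called. With sgRNA 1, 1 of the 894 members was lower with 15 nt than with 20 nt and 0 were higher in limma, against 0.0299% and 0.0718% of all genes tested. At an unadjusted p under 0.05 there were 176 members (19.7%), against 16.1% of all genes, edgeR called 1 and DESeq2 called 7. In the libraries labelled sgRNA 2, limma called 0 members lower and 0 higher, against 0.0897% and 0.012% of all genes. Here 94 members (10.5%) had an unadjusted p under 0.05, against 10.9% of all genes, and edgeR and DESeq2 called 0. The 1 called member was AL117190.2, a gene of 289 exonic bases that all lie in exons of overlapping genes at the locus of MEG3, an imprinted noncoding RNA. It was at 485 and 479 with sgRNA 1 of 15 nt and at 740.4 and 831 with 20 nt, at 239 to 289 in the libraries labelled sgRNA 2 and at 290.3 and 345 in control. The 2 lengths did not overlap (log2 -0.70, SE 0.12, adjusted p = 0.0413). The call was lost without the filter on low values (adjusted p = 0.271), without the trended prior (0.243) and on leaving out either control library, replicate 2 of sgRNA 1 at 15 nt or 20 nt or either library labelled sgRNA 2 at 20 nt (0.0505 to 0.522). MEG3 moved the same way, with means of 6243 and 8752 (log2 -0.49, SE 0.09, adjusted p = 0.048).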

How the data were processed

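Poly(A)-enriched RNA of TF-1 cells was sequenced by the authors. Per the labels and the methods, reads were trimmed with Trimmomatic, aligned to hg38 with HISAT2 and counted per gene with htseq-count. No source used here gives their versions, the annotation release or the strand setting. The deposited signal values are counts divided by a size factor per library, made with DESeq2, and 100% of them were whole multiples of the smallest value of their column within 0.01, so whole reads were recovered. In 1 column of sgRNA 1 at 20 nt the step, 0.989831, could not be checked independently. A further column matched no sample and was not used.

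The members and the lists of markers and named genes were chosen with earlier results of these data known. Named were the 8 highest control-only, 8 highest sgRNA-only and 6 highest both-sided members, members with 0 reads in every library of one side (none), members called between lengths, the 5 highest and 5 lowest non-overlapping members between the guides, the genes next to the threshold and all their neighbours. Tests used limma 3.58.1 (R 4.3.3) on log2(normalized count + 1) with a trended prior, 1 term per group over all 10 libraries, genes with a mean of at least 10 (16720 genes, all 894 members included, as their choice ensures), two-sided, with Benjamini-Hochberg adjustment over all genes tested. Neighbours were the nearest protein-coding genes in GENCODE v44 (hg38), matched by gene identifier. Scripts were tested on simulated data. Alternatives included edgeR 4.0.16 and DESeq2 1.42.0 on recovered reads, other pseudocounts, filters and scalings, a replicate block and each library left out. Counts over members not reaching 100 through one guide alone and over neighbours without shared exonic bases were chosen after the data were seen. Depth is given with the report, and intervals of counting error were not computed. Python 3.11.15, pandas 2.3.3 and matplotlib 3.10.9 were used.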

Additional observations from a re-analysis of the deposited data

Results flagged for a closer look

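In 4 members the effect of guide length differed between the guides in the interaction test of limma, in which 149 of all 16720 genes (0.891%) passed an adjusted p of 0.05 and 211 members (23.6%) had an unadjusted p under 0.05, against 23.8% of all genes. The value given is the log2 difference, 15 nt minus 20 nt, in the libraries labelled sgRNA 2 minus the same difference with sgRNA 1. AC078795.1, beside MYNN, was at 277 and 264 with sgRNA 1 of 15 nt, at 336 and 389 with 20 nt, at 376 and 431 in the libraries labelled sgRNA 2 of 15 nt and at 271 and 323 with 20 nt (0.86, SE 0.17, adjusted p = 0.04). AC112907.3, beside the translation factor gene EIF4A2, was at 1102 and 991, 1403 and 1722, 869 and 1261, and 752 and 854 in the same order (0.96, SE 0.20, adjusted p = 0.0419). AP005329.1, beside the myosin light chain gene MYL12B, was at 1047 and 925, 1252 and 1429, 959.8 and 1081, and 809 and 912 (0.69, SE 0.14, adjusted p = 0.0419). These 3 members were lower with 15 nt than with 20 nt for sgRNA 1 and higher in the libraries labelled sgRNA 2. AL391121.1, beside TRIM8, was at 166 and 145, 98.5 and 80.2, 125 and 94.9, and 152 and 150.4, the opposite order (-1.27, SE 0.25, adjusted p = 0.04). None of the 4 neighbours passed the same test (adjusted p = 0.107 for MYNN, 0.0932 for EIF4A2, 0.0883 for MYL12B and 0.0522 for TRIM8). Their values had the sign of the member, at 0.48 for MYNN, 0.44 for EIF4A2, 0.52 for MYL12B and -0.51 for TRIM8. Whether members and neighbours differed was not tested. All 4 calls were lost without the filter, without the trend and on leaving out any of 7 libraries, namely every library but replicate 1 of both sgRNA 1 groups and of sgRNA 2 at 15 nt (adjusted p = 0.0584 to 0.322). With edgeR AC112907.3 and AP005329.1 (adjusted p = 0.0505) and AL391121.1 (0.0507) lay just above the threshold.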

How the results depend on the processing

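Of 272 alternative counts, 227 stayed within 1.5 times the reported count. Of 851 alternative values for single genes, 783 kept direction and side of the threshold, 57 were no longer past it, 7 came past it and 4 turned direction. The 4 were all of SARM1, whose log2 difference of 0.03 became -0.0264 with edgeR, -0.0277 with DESeq2 and -0.0098 to 0.0663 with 1 library left out, never past the threshold. A threshold of 50 gave 1363 members (230 sgRNA only, 886 both), and one of 200 gave 532 (118 control only, 90 sgRNA only, 324 both), which follows from the rule. TMM scaling moved the median log2 difference of all genes from control by 0.10 and scaling to total reads (CPM) by 0.25, and turned the direction of 27 and 64 members. Members lower with sgRNAs were 54.6%, 51.6% and 47.4% as deposited, with TMM and with CPM. The calls between lengths of sgRNA 1 varied, with 0 members (0 lower) without the filter and without the trend, 11 (8 lower, 3 higher) when only the groups compared entered the fit and 7 (3 lower, 4 higher) with DESeq2. They were 6 without replicate 1 of sgRNA 1 at 15 nt, 6 without replicate 1 at 20 nt, 12 and 10 without replicate 1 or 2 of sgRNA 2 at 15 nt and 0 without any of the other libraries (lower 0 to 7, higher 0 to 5). The cause was not tested. Leaving out 1 library gave 889 to 903 members (control only 180.0 to 191, sgRNA only 146 to 157, both 553 to 563), 443 to 501 calls between the guides (lower 224 to 264, higher 204 to 237), 0 calls between lengths of sgRNA 2, and 308 to 337 neighbours that fell and 295 to 319 that rose. Neighbours that do not overlap the member gave 39 lower and 30 higher, of fewer genes. Those that share no exonic base with a member paired with them, a choice made after seeing the data, gave 55 lower and 52 higher, also of fewer genes. Replicate numbers did not pair the libraries (correlations of residuals -0.07 to 0.09 over 10 pairs of groups). With the replicate block, 489 members were called between the guides, 1 and 0 between lengths, and 333 neighbours fell and 311 rose. Among the genes named, the block changed the side of the threshold for TPT1 alone. The difference of TPT1 from control is given above without a test, so nothing is read from this.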
